A study of Mus musculus with 16 samples.

Results

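The 35 genes described here carry glucose into the cell, break it down to pyruvate and decide what becomes of that pyruvate. They were chosen by name and role from 55291 genes in the deposited tables, with earlier results of these data known. Counts of these genes beside the share of all genes are therefore a description only. All 35 had a mean of at least 10 normalised counts (reads divided by 1 scaling factor per library) over the 16 libraries. By role they are 2 glucose transporters, 2 hexokinases, glucose phosphate isomerase, 3 subunits of phosphofructokinase-1 (PFK-1), 3 enzymes that set the level of its activator fructose 2,6-bisphosphate, 10 genes for the enzymes from aldolase to enolase, pyruvate kinase, 2 lactate dehydrogenases, 2 monocarboxylate transporters, 4 pyruvate dehydrogenase kinases, 3 subunits of pyruvate dehydrogenase and 2 subunits of the mitochondrial pyruvate carrier.

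The libraries were made from total RNA of E14Tg2a, a mouse embryonic stem cell line of the 129/Ola strain, and the study asks how changes in the DNA-binding domain of CTCF, the DNA-binding architectural protein that anchors chromatin loops, affect the exit from pluripotency. In every library the cells' own CTCF carried a degron, a tag through which auxin triggers its destruction, and a doxycycline-inducible transgene supplied wild-type CTCF (WT) or CTCF with the R342C, K365T or Q418R change. All cultures received 500 µM of the auxin indole-3-acetic acid and 1 µg/ml doxycycline, which the protocol gives as 2 days of treatment, so no untreated group entered the comparisons. The base medium was DMEM with 15% serum and 1 mM sodium pyruvate. One arm also had LIF (a cytokine that holds the naive state) with 3 µM CHIR99021, a GSK3 inhibitor, and 1 µM PD0325901, a MEK inhibitor, and is called LIF here. The other arm went 3 days without these 3 additions and is called no LIF, so that loss of the cytokine and of each inhibitor cannot be told apart. Each of the 4 lines had 2 libraries in each medium. Each genotype is labelled as 1 line, so genotype and line cannot be told apart, and nothing in the labels says that replicates came from separate cultures, so p-values measure the spread between these libraries, which may be technical.

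Glycolysis splits glucose into pyruvate and yields ATP in the cytosol. Hexokinase and PFK-1 catalyse its early committed steps, pyruvate kinase the last one. Pyruvate is then either reduced to lactate and exported by monocarboxylate transporters, or carried into mitochondria and oxidised by pyruvate dehydrogenase, which the pyruvate dehydrogenase kinases switch off by phosphorylation. Naive embryonic stem cells are known to use both glycolysis and respiration, whereas primed cells depend mostly on glycolysis. Many of these genes are known targets of HIF-1 and of MYC, which bind DNA sites that contain or resemble the letters ACGTG.

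Promoter sequences are shown for 6 of the genes, since the steps of glucose uptake and phosphorylation (Slc2a1, Hk2), PFK-1 (Pfkl, Pfkp) and lactate transport (Slc16a1, Slc16a3) are described next. Each is the 250 bases before a start annotated by RefSeq on GRCm38.p6 (mm10), 5′ to 3′ on the strand of the gene. RefSeq starts differ from the GENCODE M21 gene bounds given below for some genes. The windows of Pfkl and Slc16a3 lie inside those bounds, and those of Slc2a1 and Pfkp reach into them. Capitals mark where ACGTG or its reverse complement CACGT stands on either strand.
Slc2a1, chr4:119108495-119108744, plus strand: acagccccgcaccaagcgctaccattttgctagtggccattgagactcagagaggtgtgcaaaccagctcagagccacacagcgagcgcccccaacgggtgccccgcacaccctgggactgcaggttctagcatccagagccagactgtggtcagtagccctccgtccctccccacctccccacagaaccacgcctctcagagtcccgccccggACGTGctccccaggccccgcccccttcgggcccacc
Hk2, chr6:82774455-82774704, minus strand: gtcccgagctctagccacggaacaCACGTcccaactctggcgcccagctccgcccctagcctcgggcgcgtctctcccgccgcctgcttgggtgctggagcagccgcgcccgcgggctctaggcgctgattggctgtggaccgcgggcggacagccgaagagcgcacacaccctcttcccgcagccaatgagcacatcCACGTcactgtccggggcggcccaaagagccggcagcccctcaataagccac
Pfkl, chr10:78009808-78010057, minus strand: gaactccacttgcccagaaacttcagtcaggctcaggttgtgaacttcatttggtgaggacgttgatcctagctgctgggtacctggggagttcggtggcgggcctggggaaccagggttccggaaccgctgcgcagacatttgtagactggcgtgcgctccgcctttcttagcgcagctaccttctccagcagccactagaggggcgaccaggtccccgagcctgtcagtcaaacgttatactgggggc
Pfkp, chr13:6648772-6649021, minus strand: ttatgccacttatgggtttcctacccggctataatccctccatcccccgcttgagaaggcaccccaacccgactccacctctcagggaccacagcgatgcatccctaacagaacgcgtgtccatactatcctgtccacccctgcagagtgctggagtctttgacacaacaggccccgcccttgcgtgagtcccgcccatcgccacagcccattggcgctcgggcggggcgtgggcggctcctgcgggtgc
Slc16a1, chr3:104638414-104638663, plus strand: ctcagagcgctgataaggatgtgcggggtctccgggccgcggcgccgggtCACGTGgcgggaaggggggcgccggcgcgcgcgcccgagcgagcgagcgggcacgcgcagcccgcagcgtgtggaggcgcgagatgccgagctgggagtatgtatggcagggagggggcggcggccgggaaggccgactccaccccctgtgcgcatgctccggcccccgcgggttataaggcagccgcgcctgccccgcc
Slc16a3, chr11:120948817-120949066, plus strand: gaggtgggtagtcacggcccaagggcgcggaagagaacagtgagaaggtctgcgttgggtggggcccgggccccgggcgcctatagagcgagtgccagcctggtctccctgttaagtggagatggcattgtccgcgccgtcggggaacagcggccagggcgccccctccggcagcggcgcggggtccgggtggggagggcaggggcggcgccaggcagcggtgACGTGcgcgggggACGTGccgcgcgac

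The letters ACGTG or CACGT were found once before Slc2a1, at 2 places before Hk2, at 2 places before Slc16a3 and as 2 overlapping matches forming CACGTG before Slc16a1. Neither Pfkl nor Pfkp holds them in this window. Over all members, 34 of the 35 genes matched the promoter table, with 51 windows, and 15 of the 34 held ACGTG in at least 1 window. Among all 27025 genes of the table the share was 18.5%, and among the 12013 genes of the table that were also tested for expression it was 24.4%. Genes with several annotated starts have more windows in which to match. Of the other motifs searched on both strands, TTCCNGGAA, the palindrome that STAT3 binds, stood before 1 member, Aldoc, and before 1.09% of all genes, and the core of the CTCF motif stood before 1 member, Pdk4, and before 0.932% of all genes. A match of letters is a description of the sequence and not a binding site.

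Each library held between 19721363 and 31935381 reads assigned to genes, as worked out from the steps between low values. The 35 genes took 1.03% to 1.22% of the normalised counts of the libraries with LIF and 1.26% to 1.58% of those without, so the groups did not overlap. Pluripotency factors were present in every library: Pou5f1 had 10710 to 12991 normalised counts with LIF and 5082 to 8922 without, and Nanog had 16330 to 28412 with LIF and 1022 to 2809 without. Of the other markers of that list, Sox2, Zfp42, Esrrb, Klf4, Tfcp2l1 and Dppa3 also had lower medians without LIF. Utf1 (medians of 455 with LIF and 5991 without) and Lin28a (943 and 14968) had higher ones. Summed over 8 formative and primed markers, the normalised counts were 3182 to 4048 with LIF and 29104 to 46371 without. Ctcf RNA, in which the cells' own gene and the transgene are not separated, ran from 5292 to 8585 normalised counts over all libraries, and the protein was not measured. With LIF it had 5853 to 6956 in WT, 6194 to 6449 in R342C, 6944 to 8585 in K365T and 7369 to 8375 in Q418R. Without LIF the values were 5292 to 6242 in WT, 5589 to 6032 in R342C, 6541 to 6574 in K365T and 6241 to 8406 in Q418R. The part of the Ctcf level in the differences between lines was not tested. Structural RNAs took 6.88% of the counts of WT no LIF replicate 2 and 2.27% to 5.06% of those of any other library. Markers of other cell types were also measured. Summed over 10 fibroblast and feeder markers, the normalised counts were 1006 to 1375 with LIF and 1532 to 3079 without, with Lum at 0 in 8 of 8 libraries without LIF and Postn in 7. Over the 8 libraries of each medium the median was 10.4 with LIF and 548 without for Tagln, 6.29 and 361 for Acta2, 78.2 and 566 for Thy1, 0 and 38.2 for Dcn, and 995 and 122 for Pdgfrb. Of the 7 tested with limma, 5 rose and 1 fell in WT, with a median log2 difference of 3.94, where 23.8% of all genes rose and 24.9% fell. Over 8 neuroectoderm markers the summed counts were 2168 to 3211 with LIF and 4318 to 6335 without, and over 10 primitive endoderm markers 7204 to 11010 and 7326 to 17634. No marker of either list was at 0 in a library without LIF. Of the endoderm markers, Lama1 had medians of 7354 with LIF and 466 without. All others had higher medians without LIF, such as Lamb1 (627 and 7225) and Dab2 (119 and 1010). Of the neuroectoderm markers, Nes (1439 and 1355) and Tubb3 (774 and 572) had lower medians without LIF. The others had higher ones, such as Sox11 (52.9 and 2612). The part of other cell types in the differences between media was not tested. In RNA from whole cultures a change in the share of cells of a type and a change in RNA per cell cannot be told apart.

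In WT cells, 3 days without LIF changed most of the pathway. With limma, an adjusted p (Benjamini-Hochberg over 17757 genes) under 0.05 marks a gene as changed here, and 16 of the 35 genes rose and 8 fell, where 23.8% of all tested genes rose and 24.9% fell, 48.8% in all. In R342C 16 rose and 6 fell, against 23.3% and 23.9% of all genes and 47.2% in either direction. In K365T 13 rose and 8 fell, against 21.6% and 23.0%, with 44.7% in either direction. In Q418R 11 rose and 8 fell, against 23.0% and 23.5%, with 46.5% in either direction. In TPM the rises made up 60.4% of the calls over all genes in Q418R, against 49.4% on the scale used here. The median log2 difference of the 35 genes was 0.48 in WT, 0.37 in R342C, 0.17 in K365T and 0.24 in Q418R, where the medians of all genes were -0.01, -0.00, -0.01 and -0.02. The genes that rose in all 4 lines were 11: Slc2a1, Pfkl, Tpi1, Pgk1, Eno1, Eno2, Eno3, Pkm, Slc16a1, Slc16a3 and Pdk1. Another 5, Hk1, Hk2, Pfkp, Pfkfb4 and Mpc2, fell in all 4 lines. A further 12 changed in 1 to 3 lines and 7 in none, and 0 genes rose in one line and fell in another. The share of all tested genes called in all 4 lines was not counted. These counts over lines thus do not set the 35 genes apart from other genes.

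**Figure D1:**
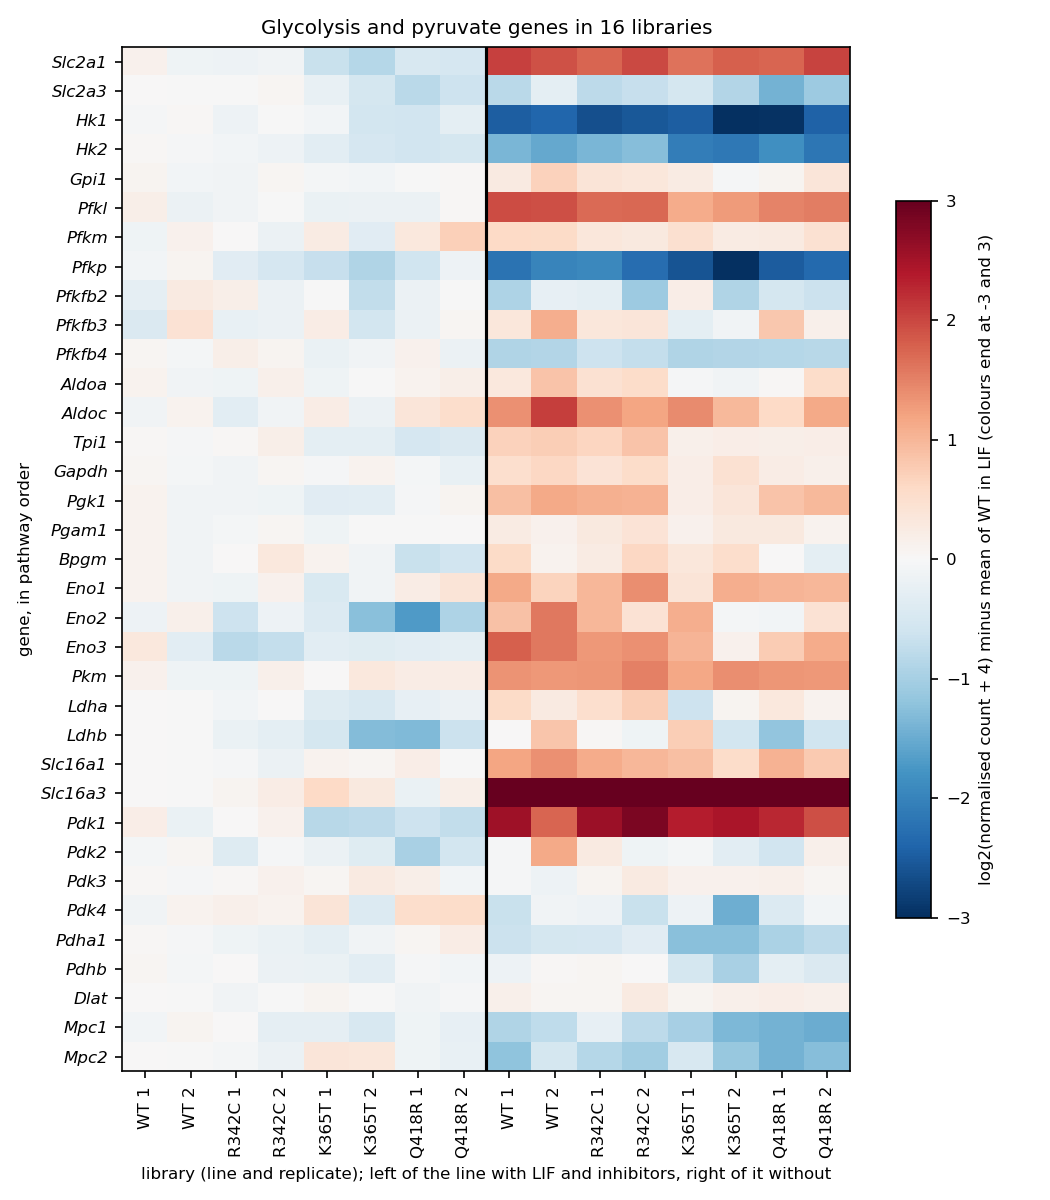
Level of each of the 35 genes (rows, in pathway order) in each of the 16 libraries (columns), as log2(normalised count + 4) minus the mean of the 2 WT libraries with LIF, with red for higher and blue for lower values and colours ending at -3 and 3. Slc2a1, Pfkl, Pkm, Slc16a1, Slc16a3 and Pdk1 are red in all 8 libraries without LIF, and Hk1, Hk2 and Pfkp are blue in all 8.

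**Figure D2:**
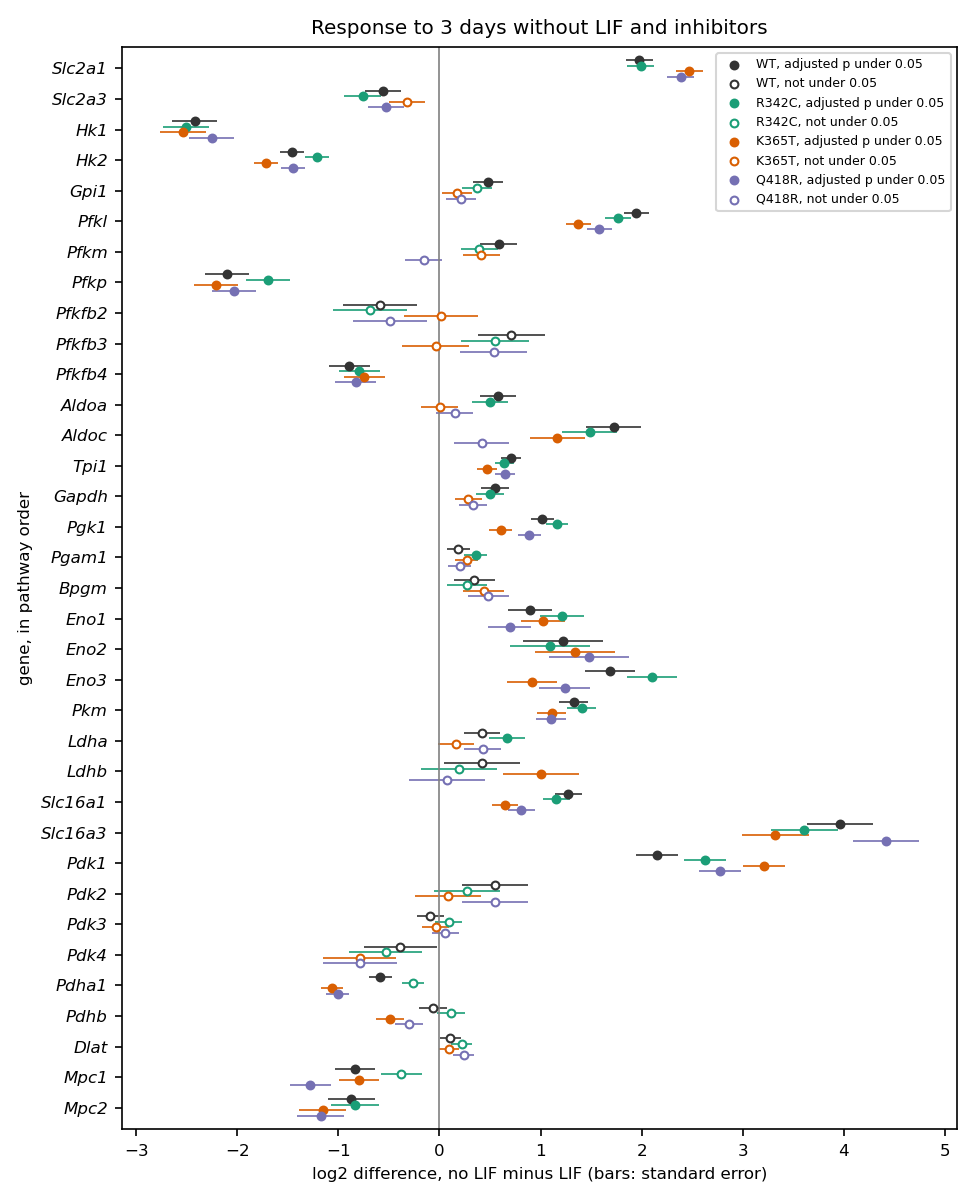
Log2 difference between no LIF and LIF for each gene (rows) in each of the 4 lines (colours), with the standard error as bars and filled points where the adjusted p was under 0.05. Values run from -2.53 for Hk1 in K365T to 4.42 for Slc16a3 in Q418R.

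The 2 glucose transporters went in opposite directions. Slc2a1 (chr4:119108711-119137983 in GENCODE M21 on mm10), which encodes the widely expressed transporter GLUT1, had 2255 and 1886 normalised counts in the WT libraries with LIF and 8503 and 7762 without. In the mutant lines it had 1863 and 1923 (R342C), 1304 and 1133 (K365T) and 1485 and 1443 (Q418R) with LIF, and 6933 and 8170.2 (R342C), 6373 and 7179.7 (K365T) and 6972 and 8426 (Q418R) without. Every library without LIF was above every library with LIF. The WT rise was 1.98 ± 0.13 (log2, SE), or 3.93-fold, with an adjusted p of 3.29e-08, and the rises in the other lines were 1.99 in R342C, 2.47 in K365T and 2.39 in Q418R. Slc2a3 (chr6:122727809-122801640), which encodes the high-affinity transporter GLUT3, was the more abundant of the pair in every library. Its normalised counts were 59691 and 58018 in WT with LIF and 33450.2 and 47779 without, and in the mutants 58079.8 and 61731 (R342C), 50231 and 40699 (K365T) and 33376 and 38201 (Q418R) with LIF, and 34037 and 36717 (R342C), 40754 and 32085 (K365T) and 21952 and 27846 (Q418R) without. The media overlapped over the 16 libraries. The WT difference of -0.56 ± 0.18 had an adjusted p of 0.0193, and its call was lost without WT LIF replicate 1, WT LIF replicate 2 or WT no LIF replicate 1 (highest adjusted p 0.222). It also fell in R342C (-0.76) and Q418R (-0.53), the latter call being lost without Q418R LIF replicate 2 or Q418R no LIF replicate 1 or with upper-quartile scaling or TPM (highest adjusted p 0.207), while in K365T its log2 difference of -0.32 did not pass. In TPM, which corrects for gene length, Slc2a1 made up 5.09% to 8.42% of the sum of the pair with LIF and 24.4% to 39.6% without.

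Both hexokinases, which phosphorylate glucose on entry, fell in all 4 lines. Hk2 (chr6:82725025-82774454), the inducible isoform, had 21818 and 20903 normalised counts in WT with LIF and 8290.0 and 7313 without. The mutants had 20266 and 19351 (R342C), 17257 and 15175 (K365T) and 14359 and 14835 (Q418R) with LIF, and 8306 and 8784 (R342C), 5067 and 4801 (K365T) and 5996 and 4753 (Q418R) without. With LIF all values lay above all those without it. The WT log2 difference was -1.46 ± 0.12, a level 2.74-fold lower, with an adjusted p of 2.24e-07. Hk1 (chr10:62268855-62379908), the constitutive isoform, had the largest fall among the 35 genes in WT and the values 7033 and 7414 with LIF and 1302 and 1388 without. In the mutants it had 6509 and 7165 (R342C), 6792 and 4907 (K365T) and 4825 and 5855 (Q418R) with LIF, and 1162 and 1242 (R342C), 1306 and 757 (K365T) and 922 and 1338 (Q418R) without. Again the media did not overlap. The difference was -2.42 ± 0.23 in WT, 5.36-fold lower, with an adjusted p of 7.71e-07, and between -2.25 and -2.53 in the other lines. Summed over both genes, hexokinase had 361 to 529.9 TPM with LIF and 126 to 211 TPM without.

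The makeup of PFK-1 RNA differed between the media, while its summed level overlapped. Its subunits are named for liver (Pfkl), muscle (Pfkm) and platelet (Pfkp). Pfkl (chr10:77986947-78010083) had 1359 and 1048 normalised counts in WT with LIF and 4641 and 4583 without. In the mutants it had 1115 and 1186 (R342C), 1042 and 1060.3 (K365T) and 1063 and 1222 (Q418R) with LIF, and 3883 and 3954 (R342C), 2577 and 2894 (K365T) and 3346 and 3487 (Q418R) without, so that the media stayed apart in all lines. Its WT rise was 1.95 ± 0.12, or 3.85-fold, with an adjusted p of 2.23e-08. Pfkp (chr13:6579768-6648777) had 11156 and 12608 in WT with LIF and 2563 and 2979.7 without, and in the mutants 9331 and 8398 (R342C), 7309 and 6329 (K365T) and 7843 and 10625 (Q418R) with LIF, and 3097 and 2413 (R342C), 1954 and 1099.9 (K365T) and 2108 and 2356 (Q418R) without. Each library without LIF was lower than each library with it. The WT difference was -2.10 ± 0.22, 4.29-fold lower, with an adjusted p of 2.34e-06. Pfkm passed in WT, with 0.59 ± 0.18 and an adjusted p of 0.0159, a call lost without WT LIF replicate 1, WT no LIF replicate 1 or WT no LIF replicate 2 (highest adjusted p 0.135). Its 0.40, 0.41 and -0.15 in R342C, K365T and Q418R did not pass. As a share of PFK-1 TPM, Pfkp had a median of 56.6% over the 8 libraries with LIF and 15.7% over the 8 without, while Pfkl had 14.6% and 49.7% and Pfkm 26.4% and 34.4%. The summed TPM of the 3 subunits had medians of 143 and 147 with ranges that overlapped, 115 to 181 with LIF and 119 to 175 without.

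**Figure D3:**
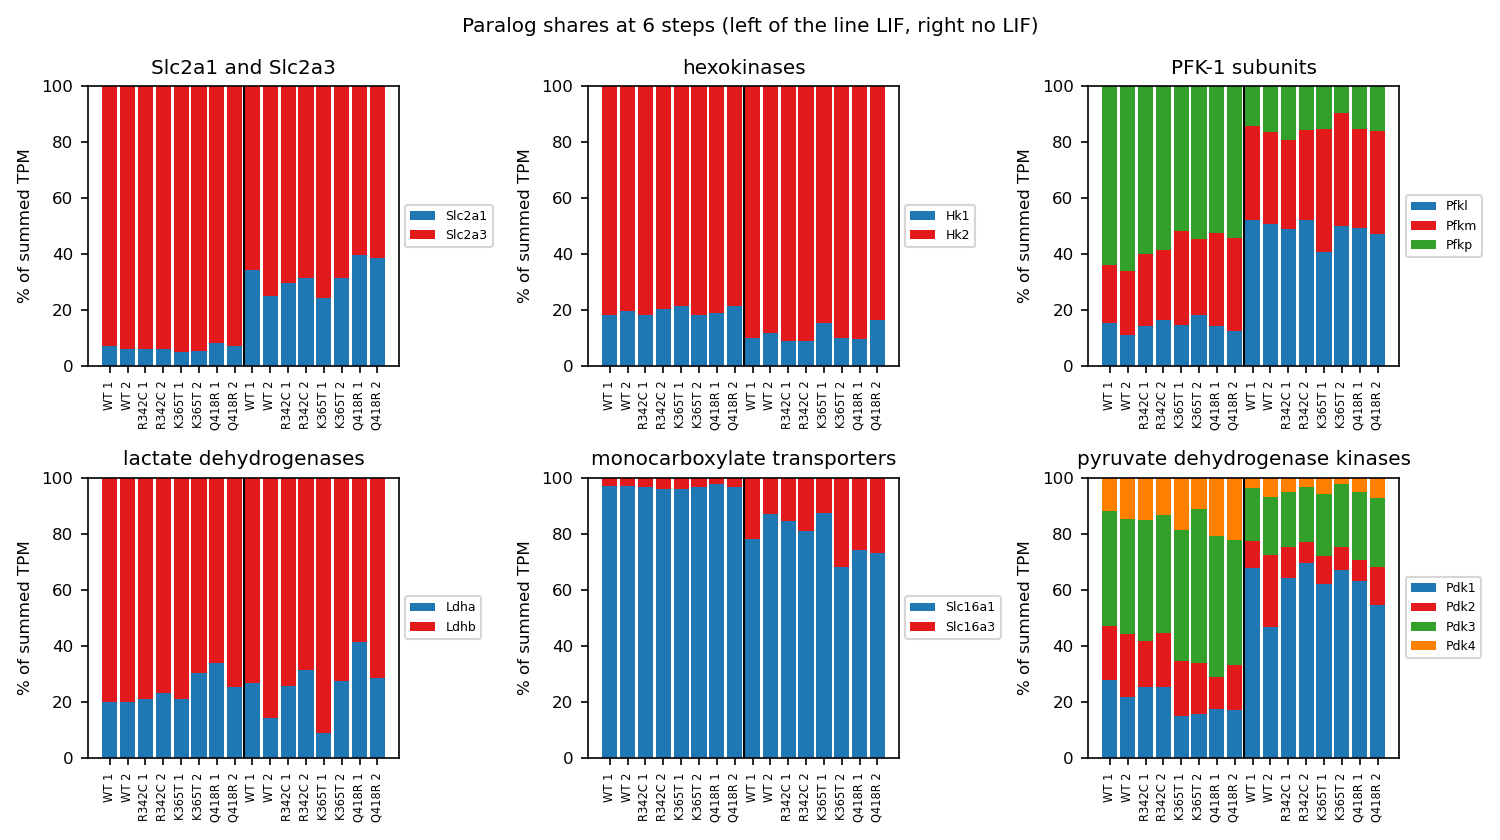
Share of each paralog in the summed TPM of its family (bars, in percent) in each of the 16 libraries, for 6 steps, with libraries with LIF left of the line. Pfkp holds the largest PFK-1 share in all 8 libraries with LIF and Pfkl in 7 of the 8 without, with Pfkm (43.9%) ahead of Pfkl (40.7%) in K365T no LIF replicate 1, and Slc2a1, Slc16a3 and Pdk1 hold larger shares in all 8 libraries without LIF than in any with LIF.

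The 3 bifunctional PFK-2/FBPase-2 genes, whose products make and remove fructose 2,6-bisphosphate, had low levels, with a summed TPM of 10.5 to 15.0 with LIF and 9.94 to 13.4 without. Pfkfb4 fell in all lines. It had 157 and 146 normalised counts in WT with LIF and 79.4 and 79.7 without. The mutants had 172 and 159 (R342C), 132 and 139.6 (K365T) and 167 and 132 (Q418R) with LIF, and 96.4 and 91.3 (R342C), 79.0 and 79.8 (K365T) and 81.3 and 82.5 (Q418R) without, again without overlap. The WT difference was -0.89 ± 0.20 with an adjusted p of 0.00202. In K365T the call was lost with only the groups compared (highest adjusted p 0.0894). Pfkfb2 had the highest mean TPM of the family over the 16 libraries, although Pfkfb3 stood above it in 4 of the 8 without LIF. It had 324 and 471 in WT with LIF and 205 and 327 without, and in the mutants 439.8 and 345 (R342C), 385 and 234 (K365T) and 344 and 386 (Q418R) with LIF, and 320.2 and 181 (R342C), 446 and 206 (K365T) and 270.4 and 247 (Q418R) without. These values overlapped, and neither Pfkfb2 nor Pfkfb3 passed the test in any line.

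Between aldolase and enolase every gene that changed rose. Glucose phosphate isomerase (Gpi1), which precedes PFK-1, passed in WT, with 0.48 ± 0.15 and an adjusted p of 0.0144, a call lost without WT LIF replicate 2 or WT no LIF replicate 2 (highest adjusted p 0.197). Aldoa, by far the main aldolase with 98.2% to 99.5% of aldolase TPM, had 20034 and 17089 normalised counts in WT with LIF and 22906 and 33309.9 without. The mutants had 16953 and 20638 (R342C), 16812 and 18419 (K365T) and 19761 and 21041 (Q418R) with LIF, and 25597 and 27327 (R342C), 17972 and 17323 (K365T) and 19079.9 and 26912 (Q418R) without, and the media overlapped. Aldoa rose in WT and R342C, by 0.58 ± 0.18 and 0.50 ± 0.18, calls lost in WT without WT LIF replicate 2 or WT no LIF replicate 2 (highest adjusted p 0.218) and in R342C without R342C LIF replicate 1, R342C no LIF replicate 1 or R342C no LIF replicate 2 or with no filter on low values (highest adjusted p 0.237). Aldoc, the brain-type isoform, stood at a low level. It had 98.1 and 116 in WT with LIF and 283 and 460.1 without, and in the mutants 85.0 and 98.7 (R342C), 126 and 94.4 (K365T) and 138 and 156 (Q418R) with LIF, and 282 and 246 (R342C), 293 and 213 (K365T) and 164 and 238 (Q418R) without. Every library without LIF exceeded those with it. Aldoc rose by 1.72 ± 0.27 in WT (adjusted p 1.06e-04), by 1.49 in R342C and by 1.17 in K365T, while its 0.42 in Q418R did not pass.

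Tpi1 (triose phosphate isomerase) and Pgk1 (phosphoglycerate kinase, the first step that yields ATP) rose in all lines, Tpi1 by 0.47 to 0.71 and Pgk1 by 0.60 to 1.17 on the log2 scale. Gapdh, which oxidises the triose, was the most abundant of the 35 genes in TPM, with 1845 to 2479 with LIF and 2498 to 3401 without. It rose in WT and R342C, by 0.55 ± 0.14 and 0.50 ± 0.14, the R342C call being lost without R342C LIF replicate 1 or R342C no LIF replicate 2 (highest adjusted p 0.0780), and its 0.29 and 0.33 in K365T and Q418R did not pass. Pgam1, the main phosphoglycerate mutase, had 2824 and 2472 in WT with LIF and 3151 and 2872 without. In the mutants it had 2540.4 and 2731 (R342C), 2415 and 2637 (K365T) and 2608 and 2680.2 (Q418R) with LIF, and 3222 and 3534 (R342C), 2869 and 3235 (K365T) and 3239 and 2853 (Q418R) without. Although the media did not overlap, the gaps were small and Pgam1 passed the test in R342C alone, with 0.36 ± 0.11, a call lost without R342C LIF replicate 1 or R342C no LIF replicate 2 or with TPM (highest adjusted p 0.123). Bpgm, which makes the 2,3-bisphosphoglycerate of red cells, passed in none of the lines.

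All 3 enolase genes rose in all 4 lines. Eno1, the ubiquitous isoform with 74.4% to 91.8% of enolase TPM, had 13395 and 11633 normalised counts in WT with LIF and 27306 and 19718 without. In the mutants it had 11346 and 13589.9 (R342C), 9163 and 11528 (K365T) and 14673 and 16226 (Q418R) with LIF, and 25044 and 32973 (R342C), 16453 and 26487 (K365T) and 25217 and 24749 (Q418R) without, and the media did not overlap. The WT rise was 0.89 ± 0.22 with an adjusted p of 0.00317. In Q418R the call was lost without Q418R LIF replicate 1, Q418R no LIF replicate 1 or Q418R no LIF replicate 2 (highest adjusted p 0.0918). Eno3, the muscle isoform, had 589 and 377 in WT with LIF and 1636 and 1415 without, and in the mutants 267 and 284 (R342C), 376 and 365.4 (K365T) and 378 and 381 (Q418R) with LIF, and 1163 and 1229.9 (R342C), 959 and 515 (K365T) and 796 and 1018 (Q418R) without. Only K365T no LIF replicate 2 lay within the range of the libraries with LIF. Eno3 rose by 1.68 ± 0.25 in WT (adjusted p 5.99e-05), and its K365T call was lost without K365T no LIF replicate 1 (highest adjusted p 0.116). Eno2, the neuronal isoform, rose by 1.09 to 1.48 over the lines, and its media overlapped. Its calls were lost in WT without WT LIF replicate 1 or WT no LIF replicate 2 (highest adjusted p 0.160), in R342C without R342C LIF replicate 1 or R342C no LIF replicate 1 or with no filter on low values (highest adjusted p 0.212), in K365T without K365T LIF replicate 2 or K365T no LIF replicate 1 (highest adjusted p 0.158) and in Q418R without Q418R LIF replicate 1 or Q418R no LIF replicate 2 (highest adjusted p 0.0835).

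Pkm (chr9:59656368-59679375), the pyruvate kinase of most growing cells, rose in all 4 lines. It had 20524 and 17265 normalised counts in WT with LIF and 47857 and 46641 without. The mutants had 17161 and 21049 (R342C), 18969 and 23581 (K365T) and 21869 and 21795 (Q418R) with LIF, and 47384 and 53504 (R342C), 41884 and 49753 (K365T) and 47048 and 46733 (Q418R) without. The 2 media were far apart in every line. The WT rise was 1.33 ± 0.14, or 2.51-fold, with an adjusted p of 3.35e-06. The counts are per gene, so the M1 and M2 splice forms of pyruvate kinase are not separated.

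The lactate dehydrogenases, which convert pyruvate and lactate into each other, overlapped between the media. Ldhb, the heart-type subunit and the more abundant of the pair in TPM, had 15391 and 15197 normalised counts in WT with LIF and 15306 and 27232 without. The mutants had 13345 and 12406 (R342C), 10692 and 6225 (K365T) and 6137 and 9837 (Q418R) with LIF, and 15591 and 13887 (R342C), 25594 and 10494 (K365T) and 6702 and 10041 (Q418R) without. The 2 libraries of WT and of K365T without LIF differed widely from each other. Ldhb passed only in K365T, with 1.01 ± 0.38, and an adjusted p of 0.0417, a call lost under 5 of 14 alternatives, such as the fit without K365T LIF replicate 2 or K365T no LIF replicate 1 or with no filter on low values or only the groups compared (highest adjusted p 0.456). Ldha, the muscle-type subunit and a classical HIF-1 target, had 7980.0 and 7880.4 in WT with LIF and 11777 and 9523 without, a difference of 0.42 ± 0.18 that did not pass. It rose in R342C, by 0.67 ± 0.18, a call lost without R342C no LIF replicate 2 (highest adjusted p 0.0642).

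Both transporters that export lactate rose in all lines. Slc16a3 (chr11:120948480-120960868), which encodes MCT4, the lactate exporter of highly glycolytic cells, had the largest rise of the 35 genes in every line. Its normalised counts in WT were 115 and 115 with LIF and 2362 and 1450.0 without. In the mutants they were 122 and 135 (R342C), 175 and 141 (K365T) and 100.1 and 130.4 (Q418R) with LIF, and 1499 and 1731 (R342C), 1004 and 2561 (K365T) and 2678 and 2373 (Q418R) without. The lowest library without LIF had 1004 and the highest with LIF 175. The WT rise was 3.96 ± 0.33, or 15.6-fold on the log2(count + 4) scale, with an adjusted p of 2.37e-07, and the other lines had 3.61, 3.32 and 4.42. Slc16a1 (chr3:104638668-104658462), which encodes MCT1, the transporter of most cells, had 3140.0 and 3043 in WT with LIF and 7049 and 7954 without. The mutants had 3027 and 2745 (R342C), 3327 and 3206 (K365T) and 3553 and 3080.4 (Q418R) with LIF, and 6700.1 and 6174 (R342C), 5764 and 4563 (K365T) and 6342 and 5317 (Q418R) without, with no overlap between media. Its WT rise was 1.28 ± 0.13 (adjusted p 1.93e-06). In TPM Slc16a3 took 2.29% to 4.19% of the sum of the pair with LIF and 12.7% to 31.8% without, and the sum itself had medians of 89.7 and 227 TPM. ACGTG or CACGT stands in both promoters printed for this pair. It also stands before Hk2, which fell in all lines, and in no window of Pfkl or Pdk1, which rose in all lines. Its part in these changes was not tested.

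Among the genes that govern the entry of pyruvate into mitochondria and its oxidation, those that changed fell, apart from Pdk1. Pdk1 (chr2:71873224-71903858), whose product inhibits pyruvate dehydrogenase, had 1308 and 984 normalised counts in WT with LIF and 6662 and 3834 without. The mutants had 1144 and 1234 (R342C), 634 and 657 (K365T) and 742 and 684 (Q418R) with LIF, and 6703 and 8103 (R342C), 5799 and 6230.2 (K365T) and 5475 and 4369.9 (Q418R) without. All 8 libraries without LIF were higher than the 8 with it. Pdk1 rose by 2.15 ± 0.21, or 4.44-fold, in WT (adjusted p 1.15e-06), and by 2.63, 3.21 and 2.77 in R342C, K365T and Q418R. The other kinase genes, Pdk2, Pdk3 and Pdk4, passed in no line. As a share of the TPM of the 4 kinases, Pdk1 had a median of 19.6% with LIF and 63.7% without, and Pdk3 43.9% and 21.5%.

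Pdha1 encodes the catalytic subunit of pyruvate dehydrogenase that these kinases phosphorylate. It had 11167 and 10716 normalised counts in WT with LIF and 6977 and 7632 without, and in the mutants 10064 and 9494 (R342C), 8958 and 10212 (K365T) and 11329.5 and 12791 (Q418R) with LIF, and 7667 and 8656 (R342C), 4549.8 and 4603 (K365T) and 5620.2 and 6397 (Q418R) without. All libraries without LIF were lower. Pdha1 fell, with log2 differences of -0.58 ± 0.11 in WT (adjusted p 5.91e-04), -1.06 in K365T and -1.01 in Q418R, while -0.26 in R342C did not pass. Of the other subunits, Pdhb fell in K365T (-0.49 ± 0.14), a call lost without K365T LIF replicate 1 or K365T no LIF replicate 2 or with only the groups compared (highest adjusted p 0.140), and Dlat passed in no line.

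Mpc1 and Mpc2 form the carrier that brings pyruvate through the inner mitochondrial membrane. Mpc2 had 380.0 and 378 normalised counts in WT with LIF and 162 and 260.4 without, and in the mutants 362 and 338 (R342C), 489.7 and 479 (K365T) and 347 and 327 (Q418R) with LIF, and 207 and 183 (R342C), 272 and 171 (K365T) and 139.6 and 155 (Q418R) without. The media did not overlap, and the WT difference was -0.87 ± 0.23 with an adjusted p of 0.00642. The call was lost in WT without WT no LIF replicate 1 (highest adjusted p 0.0927) and in R342C without R342C LIF replicate 1 or R342C no LIF replicate 2 (highest adjusted p 0.0579). Mpc1 had 432 and 479 in WT with LIF and 241 and 265 without, and in the mutants 458 and 377 (R342C), 377 and 322 (K365T) and 418.2 and 385 (Q418R) with LIF, and 386 and 264 (R342C), 224 and 177 (K365T) and 167 and 159.9 (Q418R) without. Only R342C no LIF replicate 1 reached the range of the libraries with LIF. Mpc1 fell in WT (-0.84 ± 0.20), K365T (-0.80) and Q418R (-1.28), and its -0.38 in R342C did not pass.

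Over the 8 libraries without LIF against the 8 with LIF, 11 of the 35 genes were higher without overlap, where 15.8% of all tested genes were, and 6 were lower without overlap, where 16.7% were. Other genes of the same pathway were read from lists, beside the 23.8% of all genes that rose in WT, the 24.9% that fell and the median of all genes of -0.01. Of 22 tested genes of a list of further glycolysis and pyruvate genes, 7 rose and 6 fell in WT, with a median log2 difference of 0.19. The largest rises were those of Emb (4.70 ± 0.25), which encodes embigin, a partner protein of monocarboxylate transporters, Slc2a6 (3.50 ± 0.33), a glucose transporter of the same family as Slc2a1, and Slc16a7 (2.76 ± 0.32), which encodes MCT2. The genes that fell most were Slc2a9 (-2.29 ± 0.46), a urate transporter of the glucose transporter family, Pdp2 (-2.15 ± 0.16), a phosphatase that reverses the action of the pyruvate dehydrogenase kinases, and Hkdc1 (-2.02 ± 0.48), a further hexokinase. In R342C, K365T and Q418R 6 of the 22 rose and 6 fell. Among 4 tested germ cell isoforms and retrogenes, Eno4 and Eno1b rose in WT and Pdha2 fell. Eno1b shares sequence with Eno1, which also rose, and how reads that fit both were assigned is not given.

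Of 18 regulators of the pathway, 6 rose and 3 fell in WT, with a median of 0.15, where 23.8% of all genes rose and 24.9% fell. Lin28b (3.86 ± 0.25) and Lin28a (3.54 ± 0.30), RNA-binding proteins that block let-7, rose most, followed by Egln3 (2.80 ± 0.29), a prolyl hydroxylase of HIF-1 and itself its target. Esrrb (-2.28 ± 0.42), a nuclear receptor of naive cells, Tigar (-2.21 ± 0.12), a phosphatase that lowers fructose 2,6-bisphosphate, and Trp53 (-0.87 ± 0.21) fell. Of 15 tested hypoxia-inducible genes outside glycolysis, 5 rose and 3 fell in WT, with a median of 0.31, against the same shares of all genes. Bnip3, a mitophagy receptor, rose by 3.08 ± 0.29, P4ha2, a collagen prolyl hydroxylase, by 1.52 ± 0.18 and Ddit4, an inhibitor of mTORC1, by 1.29 ± 0.33, while Ak4 (-3.13 ± 0.13), a mitochondrial adenylate kinase, Vegfa (-1.14 ± 0.34), an angiogenic growth factor, and Kdm3a (-1.08 ± 0.20), a histone demethylase, fell.

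The routes that leave or follow glycolysis were counted in the same way, against 23.8% of all genes that rose and 24.9% that fell in WT, and no test compared one route with another. In the pentose phosphate pathway 7 of 12 genes rose and 2 fell in WT (median 0.37), among them Rbks, Prps2 and G6pdx upward and Rpe and Taldo1 downward. In R342C 7 rose and 2 fell, in K365T 1 and 2, and in Q418R 3 and 3, and the test of the difference in response from WT called 0 of the 12 in each of these lines. In the tricarboxylic acid cycle 3 of 23 rose and 11 fell in WT (median -0.27), led by Idh1 (-1.85 ± 0.15), Sucla2 (-1.27 ± 0.10) and Idh2 (-1.03 ± 0.24) downward and by Me2 (0.83 ± 0.15) upward. In the other lines 8, 12 and 11 of the 23 fell in R342C, K365T and Q418R. In the serine, glycine and glycerol branches 3 of 13 rose and 4 fell in WT, with Gldc (1.73 ± 0.17) highest and Shmt2 (-1.15 ± 0.11) lowest. Of 5 tested genes of gluconeogenesis, Fbp2 (-4.44 ± 0.43) and Pck2 (-1.43 ± 0.20) fell and Pcx, which turns pyruvate into oxaloacetate, rose by 0.75 ± 0.18.

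The mutant lines were compared with WT within each medium, where all 3 use the same WT libraries. In R342C none of the 35 genes passed with limma in either medium, where 0.417% of all genes were called with LIF and 0.479% without. At an unadjusted p under 0.05 there was 1 gene in each medium, and edgeR and DESeq2 called 0. Without WT no LIF replicate 1, Pdk1 was called higher in R342C without LIF, the only call in any fit that left out 1 library. The log2 differences ran from -0.77 to 0.16 with LIF and from -0.52 to 0.54 without, with Eno3 (-0.77 ± 0.25) lowest with LIF.

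With LIF, 4 of the 35 genes were lower in K365T than in WT and 0 were higher, where 4.66% of all genes were lower, 6.42% higher and 11.1% called in either direction. Among genes with a mean of at least 100 normalised counts, 5.76% were lower. The 4 members were Slc2a1 (-0.76 ± 0.13, adjusted p 0.00271), Pfkp (-0.80 ± 0.22, 0.0315), Pdk1 (-0.81 ± 0.21, 0.0237) and Hk2 (-0.40 ± 0.12, 0.0450). For Slc2a1 both K365T libraries, with 1304 and 1133, lay below both WT libraries, with 2255 and 1886, and the same held for Pfkp, Pdk1 and Hk2 in the values given above. Slc2a1 was called under every alternative tried. The other 3 were not: leaving out K365T LIF replicate 1, K365T LIF replicate 2 or WT LIF replicate 1 left 1 call each, and leaving out WT LIF replicate 2 left 2.

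Without LIF, 11 of the 35 genes were lower in K365T than in WT and 0 were higher, where 7.33% of all genes were lower, 7.38% higher and 14.7% called in either direction. Among genes with a mean of at least 100 normalised counts, a level that all 35 reached, 9.76% were lower. The median of the 35 was -0.38, that of all genes -0.01. The largest difference was that of Eno3 (-1.11 ± 0.25, adjusted p 0.0101), with 959 and 515 normalised counts in K365T and 1636 and 1415 in WT. Pfkp (-0.91 ± 0.22, 0.0148) had 1954 and 1099.9 in K365T against 2563 and 2979.7 in WT. Pfkl (-0.76 ± 0.12, 0.00200) had 2577 and 2894 in K365T against 4641 and 4583 in WT. In all 3 the 2 lines did not overlap, and Pfkl, which rose without LIF in WT, and Pfkp, which fell, were both lower in K365T. Pgk1 (-0.75 ± 0.11, 0.00104) had 3729 and 4183 normalised counts in K365T against 6145 and 7150.2 in WT. The other 7 were Pdhb, Ldha, Pdha1, Hk2, Aldoa, Slc16a1 and Tpi1, with log2 differences from -0.69 to -0.54. No fit that left out 1 of the 4 libraries of this comparison kept all 11 calls. These libraries include WT no LIF replicate 2, which is rich in structural RNA. Some of these fits also called other genes, and not all calls without WT no LIF replicate 1 were lower. The count was 0 when only the 4 libraries of this comparison were fitted. Calls over all genes in that fit are not given here, so this count does not set the members apart from other genes.

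These comparisons depend on how libraries are put on 1 scale. In TPM the median of all genes moved to 0.11 with LIF and 0.15 without in K365T, to 0.07 and 0.19 in Q418R and to 0.13 and 0.17 in R342C. The share of higher among all calls was then 78.4% and 75.7% in K365T and 68.1% and 77.0% in Q418R, against 57.9% and 50.2%, and 43.9% and 49.2%, on the authors' scale. With upper-quartile scaling the shares without LIF were 64.1% in K365T and 60.0% in Q418R. Relative to the median of all genes, the 35 genes in K365T stood at -0.18 with LIF and -0.37 without on the authors' scale, and at -0.17 and -0.36 in TPM. Without LIF 27 of the 35 were below that median in K365T under each of these scalings, and 28 in Q418R.

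The lists of the wider pathway were also compared between K365T and WT. With LIF, 3 of 23 tricarboxylic acid cycle genes were higher and 1 lower, and 2 were higher and 0 lower among 12 pentose phosphate genes, among 13 genes of the serine, glycine and glycerol branches and among 18 regulators. Of the 22 further glycolysis and pyruvate genes 1 was higher and 1 lower, of 5 gluconeogenesis genes 1 was lower, and of 15 hypoxia-inducible genes 0 were called, where 6.42% of all genes were higher and 4.66% lower. Without LIF, where 7.38% of all genes were higher and 7.33% lower, Vegfa (-1.63 ± 0.34) and P4ha1 (-0.67 ± 0.20) were lower among 15 hypoxia-inducible genes and 0 were higher. Of 18 regulators, Mycn, a member of the MYC family, was higher (1.12 ± 0.35), as was Trp53 (0.86 ± 0.21), and Vhl, the ubiquitin ligase subunit that marks HIF-1 for destruction, was lower (-0.85 ± 0.22). Of 12 pentose phosphate genes 4 were lower and 1 higher. Among them Rpia (-0.75 ± 0.17), H6pd (-0.66 ± 0.20) and Pgd (-0.58 ± 0.17) were lower and Rpe (0.55 ± 0.14) was higher. In the tricarboxylic acid cycle 2 of 23 were higher and 2 lower, in the serine, glycine and glycerol branches 1 of 13 each way, among the further glycolysis and pyruvate genes 1 of 22 each way, and in gluconeogenesis 1 of 5 was lower. Of the 18 regulators in Q418R without LIF, where 3.02% of all genes were higher and 3.13% lower, Mycn was higher (1.78 ± 0.35) and Vhl (-1.22 ± 0.22) and Tigar (-0.64 ± 0.12) were lower.

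In Q418R 4 genes were lower than in WT with LIF and 3 without, and 0 were higher in either medium. With LIF 4.25% of all genes were called, 1.86% higher and 2.38% lower, and without LIF 6.15%, with 3.02% higher and 3.13% lower. Among genes with a mean of at least 100 normalised counts, 3.20% were lower with LIF and 4.35% without. Slc2a3 (-0.72 ± 0.18 with LIF and -0.69 ± 0.18 without), Hk2 (-0.55 ± 0.12 and -0.54 ± 0.12) and Tpi1 (-0.47 ± 0.10 and -0.53 ± 0.10) passed in both media, with adjusted p of 0.0390 and 0.0354, 0.0200 and 0.0163, and 0.0166 and 0.00675. Tpi1 had 3971 and 4205 normalised counts in Q418R and 5777 and 5517 in WT with LIF, and without LIF 6361 and 6474 in Q418R and 9048 and 9442 in WT. Slc2a1 passed with LIF alone (-0.49 ± 0.13, adjusted p 0.0499). Each of these genes had both Q418R libraries below both WT libraries where it was called. No call with LIF held when any 1 of the 4 libraries of that comparison was left out. In the comparison without LIF, no such fit kept all 3 calls. The fit without WT no LIF replicate 1 also called other genes.

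Slc2a3, Hk2 and Tpi1 lie on chromosome 6, with Gapdh, Bpgm, Eno2, Ldhb and Pdk4, and so do Vhl and Tigar. In Q418R 7 of these 8 had log2 differences from WT below 0 in each medium, with medians of -0.59 with LIF and -0.54 without. The other genes of chromosome 6 were lower as well: over 557 genes with a mean of at least 100 normalised counts the median was -0.41 in both media, 89.2% were below 0 with LIF and 86.7% without, and 21.7% and 26.4% were called lower. Relative to the median of all genes, the 8 members stood at -0.58 with LIF and -0.54 without, and the other genes of the chromosome at -0.40 and -0.42, on the authors' scaling. Within 5 Mb on either side, the median of neighbouring genes was -0.42 with LIF and -0.49 without at Hk2, -0.42 and -0.45 at Tpi1, and -0.35 and -0.39 at Slc2a3. Hk2 thus differed from its neighbours by -0.13 and -0.06, Tpi1 by -0.04 and -0.08, and Slc2a3 by -0.38 and -0.30. Of the 27 members elsewhere, 1 was called lower with LIF and 0 without. On the other chromosomes with members, 0.766% to 2.95% of the other genes were called lower with LIF and 0.919% to 6.01% without. The number of copies of chromosome 6 was not measured, and its part in these differences was not tested.

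In K365T the other genes of chromosomes 1 and 11 were higher than in WT, with medians of 0.48 and 0.35 with LIF and 0.44 and 0.36 without. On all other chromosomes with members these medians were below 0, from -0.15 to -0.03 with LIF and from -0.19 to -0.02 without. The median of all genes covers both kinds of chromosome. The other genes of chromosome 6, where Hk2 and Tpi1 lie, had medians of -0.15 with LIF and -0.19 without. Of them, 10.8% and 16.3% were called lower. Eno3 on chromosome 11 was lower in K365T without LIF by -1.11 while the median of 135 genes within 5 Mb was 0.36. The neighbours of 9 of the other genes called lower there had medians between -0.28 and 0.15, with Aldoa left out because it has more than 1 annotated position. The difference of each called gene from its neighbours ran from -1.46 (Eno3) to -0.35 (Tpi1). No test compared these distances.

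**Figure D4:**
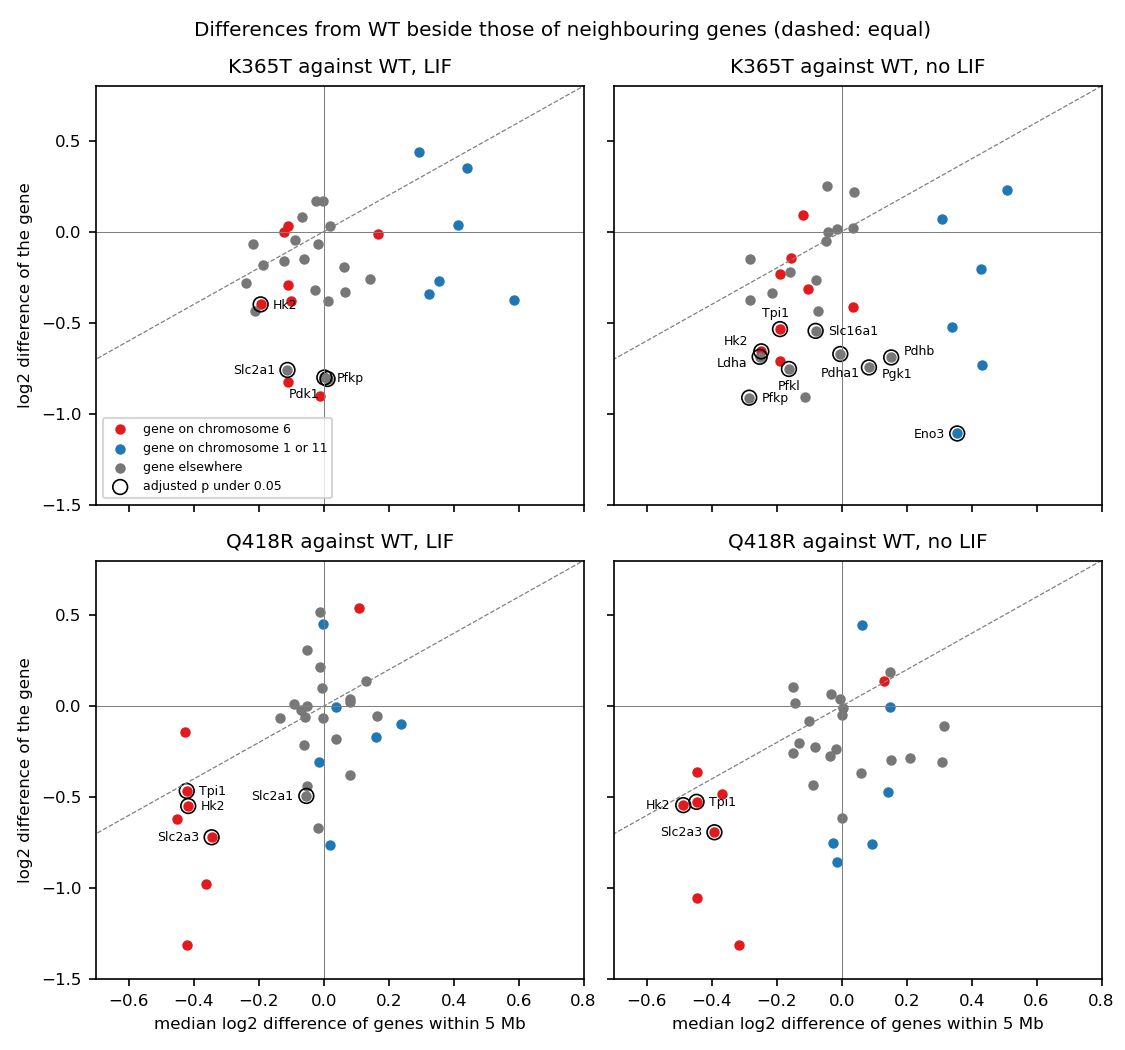
Log2 difference from WT of 34 members (y axis) against the median log2 difference of genes within 5 Mb of each (x axis), for K365T and Q418R in each medium, with members on chromosome 6 in red and on chromosomes 1 or 11 in blue and rings where the adjusted p was under 0.05; the dashed line marks equal values. In Q418R most red points lie at neighbour medians between -0.49 and -0.32, and in K365T Eno3 without LIF lies at -1.11 beside a neighbour median of 0.36.

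Whether the response to the medium differed between a mutant line and WT was tested directly. With limma 0 of the 35 genes passed in R342C, K365T or Q418R, where 0.0%, 0.659% and 0.141% of all genes did. At an unadjusted p under 0.05 there were 0, 9 and 5 of the 35, and the lowest adjusted p were 1, 0.136 and 0.286. Pdk1 in K365T had the lowest of these p in that line, where its rise exceeded that of WT by 1.06 ± 0.30, and DESeq2 called it. It was also called by limma without WT no LIF replicate 1, the only call in any fit that left out 1 library. In Q418R the response of Aldoc minus that of WT was -1.31 ± 0.38 on the log2 scale. The smaller number of genes that changed in Q418R than in WT is thus not shown to be a difference between these lines.

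Some of these genes share sequence with copies elsewhere, and how the authors assigned reads that fit several places is not given in the sources used here. Of all 100-base windows of their transcripts, 67.0% of those of Pgk1, 53.1% of Gapdh, 39.7% of Pgam1, 39.5% of Eno1 and 21.1% of Pfkfb2 also occur in another annotated gene, so the levels of these 5 are uncertain. The values were 11.3% for Mpc1, 10.5% for Pdhb, 7.52% for Pkm, 7.43% for Pfkm, 6.44% for Ldhb, 4.68% for Gpi1 and under 1% for Ldha and Tpi1, and 0 for the other members. Entries of the same name were not counted as another gene. The 0 of Aldoa, which has more than 1 annotated position, thus leaves out what its own entries share. Exons of other genes on the opposite strand cover 23.1% of the exon bases of Mpc1, 16.1% of Pdha1, 11.5% of Gpi1 and 5.58% of Pfkp. Exons of other genes on the same strand cover 17.4% of those of Pfkfb2, 15.3% of Pkm and 10.2% of Pfkm. Whether the counting used strand, and how it treated overlapping exons, is likewise not given.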

How the data were processed

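Total RNA of 16 libraries was measured. Per the submitters' processing notes, reads were processed with Trim Galore, STAR and DESeq2 against mm10. The counting tool and annotation are not given in the sources used here. The deposited values are a signal of reads divided by a size factor per library, made by the authors and called normalised counts here, and TPM, also as deposited by the authors. The value of 1 read, 0.779 to 1.19, was recovered from the steps of low values, and 100% of values came out whole within 0.05.

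Genes with a mean of at least 10 normalised counts (17757 of 37742 above 0) were fitted in R 4.3.3 with limma 3.58.1 on log2(normalised count + 4) over the 8 groups, with no sample left out, 8 residual degrees of freedom and Benjamini-Hochberg adjustment over all genes at 0.05. A fold change is on that scale and understates changes of low genes. The scripts were tested on simulated data. Alternatives were edgeR 4.0.16 and DESeq2 1.42.0 on the recovered reads, TPM with a pseudocount of 0.1, other pseudocounts and scalings, no filter, fits of only the groups compared, a replicate block and leaving out each library. Recovered counts of replicates differed beyond sampling noise in every group.

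Genes near a member were those within 5 Mb in GENCODE M21, with a mean of at least 100, and 17380 of the tested genes had 1 position. The members and gene lists were chosen with earlier results of these data known. Genes named with values in every library were the 7 largest rises and 7 largest falls among those called in WT, up to 4 genes per direction of each mutant comparison, and the most abundant paralog of each step in TPM; of each list, up to 3 genes per direction are named.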

Additional observations from a re-analysis of the deposited data

How the results depend on the processing

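Of 108 calls of members over the comparisons of media and of lines, 67 held under every alternative, 41 were lost under at least 1, and 0 changed direction. By line, 18 of 24 calls between media held in WT, 16 of 22 in R342C, 16 of 21 in K365T and 16 of 19 in Q418R. Between lines 1 of 22 held, that of Slc2a1 in K365T with LIF. In K365T against WT with LIF the 4 calls became 1 with no filter on low values and 1 in TPM, and 1 to 2 when 1 library was left out. In Q418R with LIF the 4 became 2 with no filter and 0 in TPM, and 0 whichever library was left out. In K365T without LIF the 11 became 6 in TPM and 0 when only the groups compared were fitted, and 6 to 14 when 1 library was left out. In Q418R without LIF the 3 became 0 in TPM, 0 with only the groups compared and 8 with DESeq2, and 1 to 5 with 1 library left out. In R342C without LIF the count was 0 to 1 with 1 library left out. For the difference in response between K365T and WT the count was 1 with DESeq2 and 0 to 1 with 1 library left out. The cause of these shifts was not tested. The share of all genes called under each alternative is not given beside these counts. A change in the members and a change in calls over all genes thus cannot be told apart here. Between media, leaving out 1 library gave 21 to 23 calls in WT, 17 to 22 in R342C, 20 to 21 in K365T and 17 to 18 in Q418R. Whether replicate numbers pair libraries across groups is not given in the labels. Over 28 pairs of groups the correlation of same-numbered deviations ran from -0.39 to 0.45, with a median of 0.08 and 13 over 0.1. This check cannot settle the question. With a replicate block the counts were 24, 23, 20 and 19 between media, 4 and 3 in K365T and Q418R with LIF, and 11 and 3 without, and the block ended the call of Ldhb in K365T. With 2 libraries per group, small differences on the log2 scale could not be called, and the absence of a call is no sign of equal levels.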
